A study of Mus musculus with 2 samples.

Results

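The gamma crystallins are small structural proteins of the lens fibre cell, and this account follows their 8 genes measured in mouse eyecups, *Cryga*, *Crygb*, *Crygc*, *Crygd*, *Cryge*, *Crygf*, *Crygn* and *Crygs*. The genes were taken by symbol, and all 8 were found among the 31053 features of the count tables. UMIs (unique molecular identifiers, each standing for 1 captured RNA molecule) were read in lens cells and in all other cells of 2 single-cell libraries at E13.5, 1 per genotype. The control library came from the eyecups of 1 embryo with the genotype Six3+/-;Six6+/-, whose Six3 null allele arose by excision of the floxed allele in the father's germ cells. The DKO library came from the eyecups of 1 littermate, Six3F/F;Six6-/-;a-Cre, in which Six6 is lost in the germline and Six3 is removed by a Cre that acts in the peripheral retina and not in its centre. The DKO embryo was picked by GFP-positive rosettes in its retina and the control embryo by normal eyecups without GFP. Retina, lens and blood were all in the dissected tissue. Because the Cre is retinal and Six6 was deleted everywhere, effects of either gene on the lens, effects of the surrounding retina and differences between 2 embryos cannot be told apart here.

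Lens fibre cells arise from the epithelium at the front of the lens, lengthen, and fill themselves with crystallins before they lose their organelles. The alpha crystallins are chaperones present early, while beta and gamma crystallins accumulate as fibres mature, and gamma crystallins pack most densely in the oldest fibres. Maf, Sox1 and Prox1 are known activators of gamma crystallin promoters, and Six3 is known for early lens formation and for restraining them. *Crygs* is best known as a gamma crystallin of later fibres, and *Crygn* is an outlying member with features of both the beta and gamma families.

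*Cryga* to *Cryge* lie head to tail within 54820 bases of chromosome 1 (mm10, GENCODE vM21 annotation, chr1:65048554-65103373, minus strand), and *Crygf* lies 823147 bases further on, on the plus strand (chr1:65926520-65928307). *Crygn* is on chromosome 5 (chr5:24751003-24758008, minus strand) and *Crygs* on chromosome 16 (chr16:22805203-22811577, minus strand). The 100 bases before each gene's start in RefSeq are shown because the clustered genes share letters there. TATATA stands in all 6 clustered genes and in *Crygn*, and TTTTGTG in 5 of the clustered genes. The *Crygs* stretch holds neither, but holds TATAAA. Whether these letters bear on how the genes vary between lens cells was not tested. For *Crygc*, *Crygn* and *Crygs* the whole stretch lies inside the gene as GENCODE draws it. For *Cryga*, *Crygd* and *Crygf* only the last bases of the stretch do, and for *Crygb* and *Cryge* it lies outside. Sequences are those of RefSeq on GRCm38.p6, read 5′ to 3′ on the gene's strand, with TATATA and TTTTGTG, found on either strand, in capitals (overlapping matches of TATATA in *Cryga* and *Crygb* run together).
Cryga, chr1:65103364-65103463, minus strand: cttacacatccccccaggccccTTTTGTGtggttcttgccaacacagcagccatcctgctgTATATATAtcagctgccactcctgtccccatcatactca
Crygb, chr1:65082291-65082390, minus strand: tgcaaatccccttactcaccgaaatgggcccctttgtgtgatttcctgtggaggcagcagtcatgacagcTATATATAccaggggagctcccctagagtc
Crygc, chr1:65073533-65073632, minus strand: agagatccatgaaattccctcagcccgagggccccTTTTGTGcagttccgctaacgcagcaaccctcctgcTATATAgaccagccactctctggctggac
Crygd, chr1:65063441-65063540, minus strand: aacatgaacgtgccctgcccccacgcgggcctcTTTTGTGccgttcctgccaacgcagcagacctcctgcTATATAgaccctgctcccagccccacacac
Cryge, chr1:65051164-65051263, minus strand: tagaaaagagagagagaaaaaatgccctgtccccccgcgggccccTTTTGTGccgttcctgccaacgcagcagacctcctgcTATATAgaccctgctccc
Crygf, chr1:65926422-65926521, plus strand: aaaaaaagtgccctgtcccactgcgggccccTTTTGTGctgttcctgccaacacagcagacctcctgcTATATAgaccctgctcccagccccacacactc
Crygn, chr5:24757849-24757948, minus strand: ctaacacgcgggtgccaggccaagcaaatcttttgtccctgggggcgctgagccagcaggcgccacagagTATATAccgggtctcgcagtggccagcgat
Crygs, chr16:22811411-22811510, minus strand: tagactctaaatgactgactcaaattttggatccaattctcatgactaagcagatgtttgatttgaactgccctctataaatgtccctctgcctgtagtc

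In the 300-base windows from 250 bases before to 50 bases after each start, TATATA was found in 7 of 8 members and in 5.67% of 32851 promoters of the same length. TTTTGTG, letters picked after the sequences had been seen, was in 5 members, all of them clustered, and in 5.03% of promoters. *Crygb*, *Crygn* and *Crygs* held no match to these letters. TGCTGA, letters from the recognition element of Maf proteins, was in 4 members (*Cryga*, *Crygc*, *Crygn* and *Crygs*) and in 19.5% of promoters. ACAAT, letters from that of Sox proteins, was in 4 members (*Crygd*, *Cryge*, *Crygf* and *Crygs*) and in 31.0% of promoters. Both strands were searched for each motif, and the matches describe letters and not bound sites.

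After the cell filter of the study, 9822 of 10315 control barcodes and 12146 of 12672 DKO barcodes were kept, with medians of 7620 and 5879 UMIs per cell. A cell was taken as a lens cell where *Cryaa* and *Cryab*, the alpha crystallins, made up at least 1% of its UMIs, which held for 358 control and 344 DKO cells. The rule used these 2 genes, so their level in lens cells is no result. Near the limit lay 59 control and 73 DKO cells from 0.5% to 1%, and 70 and 136 cells from 1% to 2%. Lens cells had medians of 5787 and 8028 UMIs. Markers of fibre cells stood in them: the 12 genes of a fibre list (*Mip*, *Bfsp1*, *Bfsp2*, *Lim2*, *Grifin*, *Caprin2* and others) summed to 4464 UMIs per 1000000 UMIs (CPM) in control and 2703 CPM in DKO lens cells, against 32.5 and 30.1 CPM in the remaining cells. *Dnase2b*, a nuclease of the last stage of fibre maturation, was at 0 in both libraries, and *Birc7*, *Lenep* and *Lgsn* had at most 4 UMIs. The 5 epithelium genes (*Foxe3*, *Cdh1*, *Pdgfra*, *Mab21l1*, *Tfap2a*) summed to 172 and 398 CPM, and *Foxe3*, the defining gene of lens epithelium, had 13 and 19 UMIs. Barcodes present in both libraries numbered 22, of which 2 were control lens cells. Beside the gamma crystallins, hemoglobin UMIs in lens cells stood at 7569 CPM in control and 1786 CPM in DKO, and a list of 9 neuron genes at 105 and 308 CPM. Their part in the results was not tested.

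All 8 gamma crystallin genes were lower in DKO than in control lens cells. Their summed level was 39190 CPM (95% interval 38999 to 39383) in control and 7293 CPM (7199 to 7388) in DKO, a log2 ratio of -2.43 (-2.45 to -2.41). With 1 library per genotype there is no test, and every interval here, exact Poisson for levels, exact binomial for shares and from the binomial split of UMIs for ratios, covers counting error only. The cells share their library and do not replicate the genotype. All 8 members were at least 2-fold lower in DKO, against 1.46% of the 6523 genes with at least 100 UMIs in lens cells, and 3.65% of these genes were at least 2-fold higher. The median log2 ratio over these 6523 genes was 0.24, and the members' median was -2.77.

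Among the clustered genes, *Cryge* was the most abundant in both libraries, at 17958 CPM in control and 3857 CPM in DKO. UMIs count molecules tagged at their 3′ end, so levels were set beside each other without division by transcript length. *Cryga* stood at 8744 CPM in control and 1036 CPM in DKO, a log2 ratio of -3.08 (-3.13 to -3.03). *Crygd* stood at 3248 and 455 CPM. *Crygb* had the lowest ratio of the family, -3.75 (-3.90 to -3.61), at 1867 CPM in control and 138 CPM in DKO. *Crygf*, the rarest clustered gene, stood at 777 and 84.7 CPM, a ratio of -3.20 (-3.38 to -3.02). The 3 genes with ratios under -3, *Cryga*, *Crygb* and *Crygf*, were also those found in the fewest DKO lens cells.

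*Crygc* differed less than its clustered neighbours, with 3150 CPM in control and 1080 CPM in DKO, a ratio of -1.54 (-1.60 to -1.49). *Cryge* had a ratio of -2.22 (-2.25 to -2.19) and *Crygd* of -2.83 (-2.91 to -2.76). In control lens cells *Crygd*, *Crygc* and *Crygn* were close in level, at 3248, 3150 and 3061 CPM. The intervals of *Crygd* (3193 to 3304) and *Crygc* (3095 to 3204) overlapped, and so did those of *Crygc* and *Crygn* (3007 to 3115). In DKO *Crygc* (1044 to 1117) and *Cryga* (1001 to 1072) overlapped at the second place, while *Crygd* (432 to 480) and *Crygn* (443 to 492) overlapped below them.

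Outside the cluster, *Crygn* stood at 3061 CPM in control and 467 CPM in DKO, a ratio of -2.71 (-2.79 to -2.63) that lay within the range of the clustered genes. *Crygs* was the lowest member in control, at 386 CPM (367 to 405), and stood at 174 CPM (160 to 190) in DKO. Its ratio of -1.14 (-1.29 to -1.003) was the nearest to 0 in the family. In DKO *Crygs* was therefore more abundant than *Crygb* and *Crygf*, which exceeded it in control.

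Reads of near-identical genes limit how these levels split. *Cryge* and *Crygf* transcripts were 95.1% identical, and 94 of the 251 windows of 50 bases in the last 300 bases of *Cryge* were also in *Crygf*. Reads from such windows fit both genes and are not counted by the authors' counting program, so the levels of *Cryge* and *Crygf* are uncertain relative to each other. For *Crygd* and *Cryge* 14 of 251 windows in the last 300 bases were shared, and in the other 26 pairs none was. Over whole transcripts more pairs shared windows. *Crygd* shared 192 of 564 with *Cryge* and 63 of 564 with *Crygf*, and *Crygb* shared 172 of 585 with *Crygc*. A ratio between the libraries uses the same windows on both sides.

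**Figure D1:**
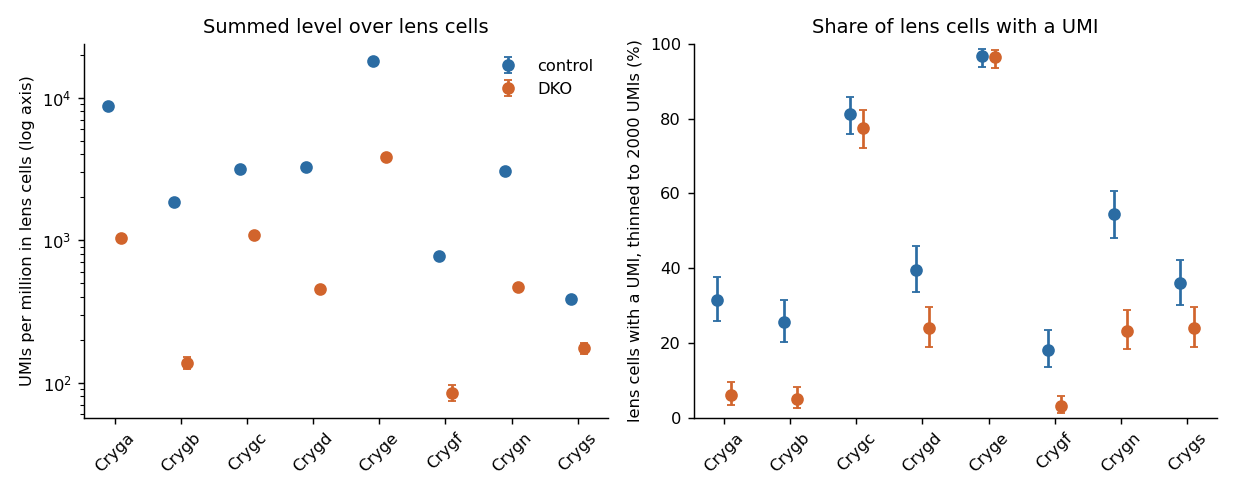
Gamma crystallin genes in control (blue) and DKO (orange) lens cells. Left, summed UMIs per 1000000 UMIs on a log axis with exact Poisson 95% intervals, mostly smaller than the points. Right, percent with at least 1 UMI among lens cells of at least 2000 UMIs, each thinned to 2000, with exact binomial 95% intervals. Every gene is lower in DKO at the left. At the right the 2 libraries lie near each other for *Crygc* and for *Cryge* and far apart for *Cryga*, *Crygb* and *Crygf*.

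The members differed widely in the share of lens cells that held them. To compare shares at equal depth, each lens cell was thinned to 2000 UMIs, which left 250 control and 267 DKO cells and left out 108 and 77 shallower ones. Lens cells with at least 10% of UMIs on the family, 69 in control and 17 in DKO, had medians of 1477 and 1424 UMIs. Most of them were therefore left out of the thinned shares. *Cryge* had a UMI in 96.8% (93.8 to 98.6) of control and 96.6% (93.7 to 98.4) of DKO lens cells. *Crygc* had one in 81.2% (75.8 to 85.8) and 77.5% (72.0 to 82.4). For both genes the share was alike within counting error while the summed level was 4.66-fold and 2.92-fold lower in DKO.

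*Cryga*, *Crygb* and *Crygf*, the least widespread genes, differed in share as well. *Cryga* had a UMI in 31.6% (25.9 to 37.8) of control and 5.99% (3.46 to 9.55) of DKO lens cells. *Crygb* was found in 25.6% and 4.87%, and *Crygf* in 18.0% and 3.00%. *Crygd* (39.6% and 24.0%), *Crygn* (54.4% and 23.2%) and *Crygs* (36.0% and 24.0%) lay between them and *Crygc*. Without thinning, the shares for *Cryga* were 47.2% and 13.1%, and for *Cryge* 98.3% and 99.1%. Red blood cells, which do not make crystallins, had shares after thinning of 2.61% in control and 0.890% in DKO for *Cryga* and of 6.05% and 2.37% for *Cryge*, at medians of 8741 and 6746 UMIs per cell. The lens shares of *Cryga*, *Crygb* and *Crygf* in DKO were thus small but above those of red blood cells, which were 0.445% for both *Crygb* and *Crygf*.

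Most gamma crystallin UMIs came from few cells. Over the 358 control lens cells the 8 genes together made up from 0 to 30.5% of a cell's UMIs, with a median of 0.614%, and over the 344 DKO cells from 0 to 30.2%, with a median of 0.350%. The lower part of the distribution was close in the 2 libraries, with the 10th percentile at 1661 CPM in control and 1643 CPM in DKO and the 25th at 2476 and 2544 CPM. The upper part was not, with the 75th percentile at 57049 and 5603 CPM and the 90th at 179313 and 11705 CPM. Cells in which gamma crystallins reached 10% of all UMIs numbered 69 of 358 in control (19.3%, 15.3 to 23.8) and 17 of 344 in DKO (4.94%, 2.90 to 7.79). These cells carried 61.0% and 37.3% of the lens cells' gamma crystallin UMIs. They were shallow, with medians of 1477 and 1424 UMIs per cell. The 10 cells with the most gamma crystallin UMIs held 45.1% of them in control and 41.9% in DKO. Without the 10 lens cells of highest total UMI count in each library the log2 ratio was -2.11, and the ratio of the median cells was -0.81.

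Lens cells were then grouped by a readout outside the family, the share of a cell's UMIs that fell on the 12-gene fibre list, which holds no crystallin. Fewer DKO than control cells stood at the upper end. Under 0.2% were 133 control and 167 DKO cells, from 0.2% to 0.4% were 88 and 124, from 0.4% to 0.8% were 101 and 40, and at 0.8% and over were 36 and 13. The last group is thinly filled, since 1 of its 13 DKO cells held 31697 of the group's 47128 UMIs (67.3%) and 59.8% of its gamma crystallin UMIs. These groups were added after the values had been seen.

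**Figure D2:**
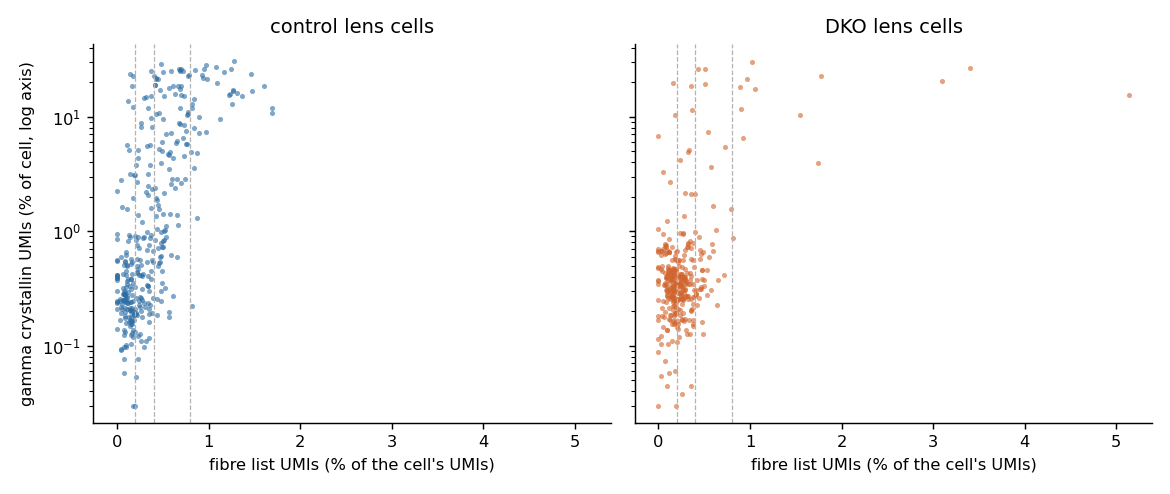
Each point is 1 lens cell, with the share of its UMIs on the fibre list on the x axis (%) and the share on the 8 gamma crystallin genes on the y axis (%, log axis; cells at 0 drawn at 0.03) and dashed lines at 0.2, 0.4 and 0.8%. The highest cells reach 30.5% in control and 30.2% in DKO, and 69 control but 17 DKO cells lie at 10% or over.

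In the cells of lowest fibre share the summed level was 4575 CPM (4447 to 4705) in control and 3745 CPM (3643 to 3849) in DKO. In the next group it was 8594 and 4390 CPM, and from 0.4% to 0.8% it was 50513 and 12568 CPM. At 0.8% and over it was 136008 CPM (134978 to 137043) in control and 130708 CPM (127464 to 134013) in DKO. The log2 ratios along these groups were -0.29, -0.97, -2.01 and -0.057. Without the 1 deep DKO cell the last group stood at 160456 CPM in DKO and its ratio was 0.24 (0.18 to 0.30), so its direction rests on that cell. Without the deepest cell of each library its ratio was 0.38 (0.32 to 0.44). In cells with at least 2000 UMIs the first 3 ratios were -0.16, -0.89 and -2.11, and the last, -0.087, came from 3 DKO cells. With the control library's UMI share of each group applied to both libraries, the summed level was 39190 CPM in control and 22607 CPM in DKO, a ratio of -0.79 in place of -2.43, or of -0.58 without the 1 deep DKO cell.

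Single members departed from this course. Under 0.2% fibre share *Crygc* and *Cryge* were close in level in the 2 libraries. *Crygc* stood at 667 CPM in control and 706 CPM in DKO (log2 ratio 0.083, -0.058 to 0.22). *Cryge* stood at 2511 and 2392 CPM (-0.070, -0.14 to 0.0041). The cells of that group differed in depth, with medians of 3516 UMIs and 1376 genes in control. In DKO the medians were 7383 UMIs and 2593 genes. Whether these cells stood at the same stage in both libraries was not tested. *Cryga*, *Crygb* and *Crygf* were lower in DKO in that group, at 604 and 165 CPM, 96.3 and 27.9 CPM, and 69.2 and 16.2 CPM. The group also held cells rich in gamma crystallins. Control cells of 704, 558, 1181, 3427 and 569 UMIs had 23.6, 22.6, 18.7, 13.8 and 12.1% of UMIs on the family. DKO cells of 629 and 3228 UMIs had 19.9 and 10.4%. Their part in these levels was not tested. From 0.4% to 0.8%, *Cryga* stood at 11156 CPM in control and 1187 CPM in DKO, the widest ratio of the family in that group at -3.23 (-3.35 to -3.11). At 0.8% and over *Cryga* stood at 44390 CPM in DKO and 33776 CPM in control (0.39, 0.33 to 0.46), with 1519 of its 2092 DKO UMIs from the 1 deep cell, and without that cell the ratio was 0.14 (0.014 to 0.26). *Crygb* stood at 3331 CPM in DKO and 8989 CPM in control (-1.43, -1.67 to -1.20), but at 0.14 (-0.10 to 0.37) without that cell. *Crygn* was lower in DKO in all 4 groups, with ratios of -0.79, -2.17, -1.52 and -0.76, the last -0.42 (-0.74 to -0.12) without that cell. With the deepest control cell at 0.8% and over left out as well, the *Cryga* ratio was 0.23 (0.10 to 0.35). That of *Crygb* was 0.34 (0.096 to 0.57) and that of *Crygn* -0.34 (-0.66 to -0.039).

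*Crygs* followed another course. It stood at 174, 324, 456 and 737 CPM along the 4 control groups, a range far narrower than that of *Cryga* (604 to 33776 CPM). In DKO it stood at 164, 169, 222 and 127 CPM, the last from 6 UMIs (interval 46.7 to 277), or 389 CPM without the 1 deep cell, which held none of them. At the lowest fibre share the 2 libraries were close for *Crygs* (-0.086, -0.37 to 0.20).

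**Figure D3:**
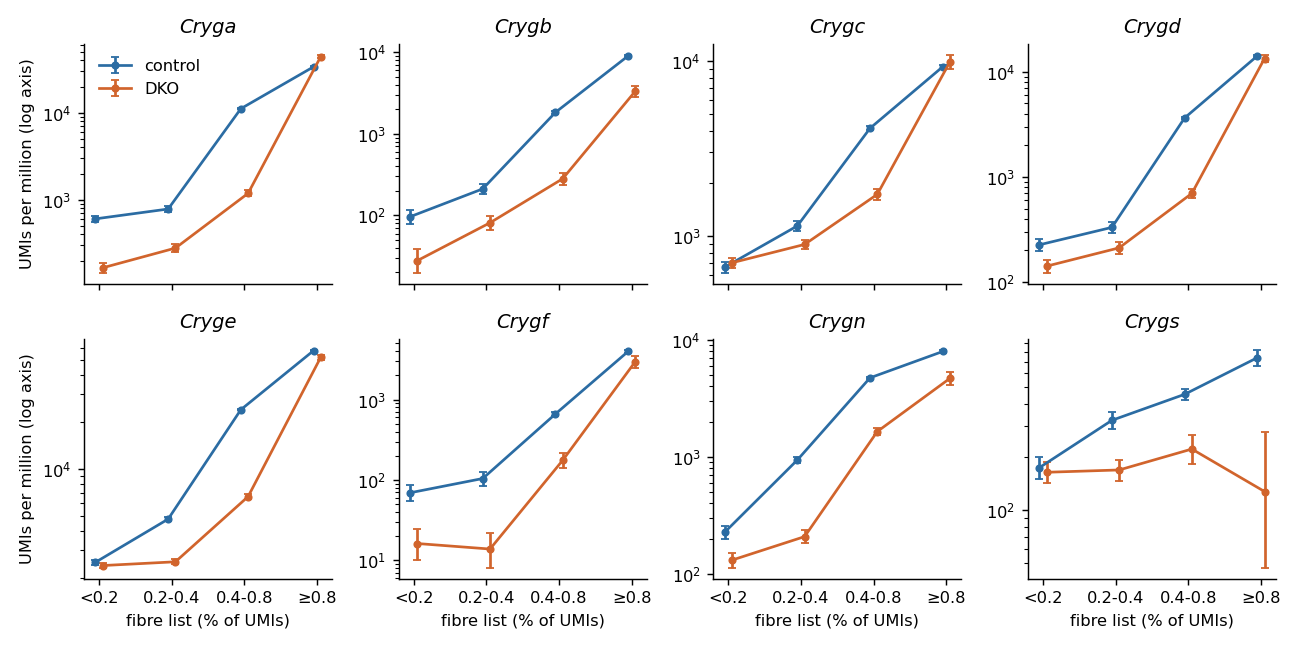
Level of each gamma crystallin gene (UMIs per 1000000 UMIs, log axis, scale set per panel) in lens cells grouped by the share of UMIs on the fibre list, for control (blue) and DKO (orange), with exact Poisson 95% intervals. The 7 genes other than *Crygs* rise by more than 10-fold along the control groups. The DKO points at 0.8% and over depend on 1 of 13 cells, which held 67.3% of that group's UMIs. For *Crygb*, *Crygf* and *Crygs* most UMIs of the gene came from the other cells of the group.

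Over single lens cells the clustered genes and *Crygn* varied together and *Crygs* did not. On ln(1 + UMIs per 10000), Pearson's r between *Cryga* and *Crygd* was 0.92 over 358 control and 0.79 over 344 DKO cells, and between *Crygb* and *Crygf* it was 0.91 and 0.92. *Crygn* and *Cryge* gave 0.86 and 0.68. *Crygs* and *Cryge* gave 0.10 and 0.031. Counts of several members were sparse. A *Crygs* UMI was in 180 control and 164 DKO lens cells, a *Crygb* UMI in 158 and 44, and a *Crygf* UMI in 121 and 31. The cells behind each correlation share a library and their depth differs, so the correlations are descriptions. Among 6656 genes with a UMI in at least 10% of lens cells of each library, the genes outside the family most like the sum of *Cryga* to *Crygf* were *Cryba4* (mean r 0.89), *Crybb3* (0.83), *Cryba1* (0.78), *Cryba2* (0.75), *Crybb1* (0.74), *Gje1* (0.59), *Capn3* (0.58), *Mip* (0.58), *Cryaa* (0.57) and *Pla2g7* (0.54). Those most like *Crygn* were *Crybb1* (0.87), *Cryba2* (0.86), *Cryba4* (0.83), *Crybb3* (0.83) and *Cryba1* (0.81). For *Crygs* the highest were *Mgarp* (0.22), *Nhs* (0.20), *Ddx50* (0.18), *Gpx1* (0.18) and *Srp14* (0.17), so no gene followed it closely.

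The beta crystallins were lower with the gamma crystallins, apart from *Crybb2*. Of the 6 beta genes measured, 5 were at least 2-fold lower in DKO lens cells and 1 at least 2-fold higher, with a median log2 ratio of -1.95. *Cryba4*, a beta crystallin of fibres, stood at 5124 CPM in control and 393 CPM in DKO (-3.71, -3.79 to -3.62), beside *Crygb* at the low end. *Crybb1* stood at 15737 and 3088 CPM, *Cryba2* at 5269 and 1112 CPM, *Cryba1* at 23146 and 7312 CPM and *Crybb3* at 29478 and 10543 CPM. *Crybb2* stood at 14.2 CPM in control and 31.0 CPM in DKO. *Cryaa* and *Cryab*, which the lens rule used and which are left out of this count, stood at 47794 and 23552 CPM and at 6305 and 7783 CPM.

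Genes of the fibre list were mostly lower and those of the epithelium list higher in DKO. Of the 12 fibre genes 8 had at least 100 UMIs, of which 3 were at least 2-fold lower in DKO and none at least 2-fold higher, with a median log2 ratio of -0.86. *Caprin2*, an RNA granule protein of fibres, stood at 84.8 CPM in control and 23.0 CPM in DKO, the filament gene *Bfsp1* at 93.4 and 28.8 CPM, and *Mip*, the fibre water channel, at 776 and 248.6 CPM. *Grifin*, a lens galectin, was at 297 CPM in control and 392 CPM in DKO. All 4 epithelium genes with at least 100 UMIs were at least 2-fold higher in DKO, with a median of 1.15: *Cdh1*, the epithelial cadherin, stood at 47.3 CPM in control and 126 CPM in DKO, *Pdgfra* at 50.7 and 121 CPM, *Tfap2a* at 28.4 and 58.5 CPM and *Mab21l1* at 42.4 and 86.6 CPM. A split by which list had more UMIs put 336 of 358 control and 317 of 344 DKO cells on the fibre side, 93.9% and 92.2%, a difference of -1.70 percentage points (-5.75 to 2.28). After thinning each cell to 1000 UMIs the difference was -9.34 points (-15.8 to -2.78), so it depends on depth. Within the fibre side the gamma crystallins had a ratio of -2.43 (-2.45 to -2.41).

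Of 9 regulators of crystallin genes, 8 had at least 100 UMIs, of which 2 were at least 2-fold lower in DKO lens cells and none at least 2-fold higher. *Maf*, a main activator of crystallin genes in fibres, stood at 1088 CPM in control and 491 CPM in DKO (-1.15, -1.23 to -1.06), and the heat shock factor *Hsf4* at 33.8 and 12.1 CPM. *Sox1*, which acts on gamma crystallin promoters, stood at 73.3 and 50.8 CPM (-0.53, -0.82 to -0.25), and *Prox1*, which drives fibre elongation, at 440 and 356 CPM (-0.30, -0.41 to -0.20). *Pitx3* was at 125 and 123 CPM, *Pax6* at 244 and 328 CPM and *Sox2* at 62.3 and 74.5 CPM. *Maf* did not differ at the lowest fibre share beyond counting error, at 317 and 343 CPM, and stood at 1646 and 818 CPM from 0.4% to 0.8%. Their part in the gamma crystallin difference was not tested.

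*Six3*, the floxed gene, was present in DKO lens cells, at 256 CPM (239 to 275), and in control lens cells at 162 CPM (150 to 175). *Six6* stood at 15.0 CPM in control and 2.88 CPM in DKO lens cells. The 61 control *Six6* UMIs in 358 lens cells were fewer per cell than the 455 in 1235 red blood cells. Whether those in lens cells are free RNA was not tested. Over all other cells *Six6* stood at 259 and 43.2 CPM, which matches the labels in direction.

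Outside the lens, gamma crystallin UMIs were found in every class of cells. RNA set free in the cell suspension can enter any droplet. Counted per droplet, the control load was alike in 5 of 6 classes, although their depths differed. Whether this load is free RNA was not tested. Kept barcodes other than lens cells held 10416 of 170299 control and 4456 of 27276 DKO gamma crystallin UMIs. In the control library the genes' UMIs numbered 63.2 per 100 red blood cells (58.8 to 67.8), 63.8 per 100 neuron-like cells, 58.8 per 100 photoreceptor-like cells, 61.7 per 100 pigmented-like cells and 65.9 per 100 macrophage-like cells. The remaining cells, which no list set apart, had more, at 129.7 per 100. Classes outside the lens were set by marker lists (hemoglobin at least 10% of UMIs for red blood cells).

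In DKO the load was lower in 5 of 6 classes, at 19.6 per 100 neuron-like cells, 8.58 per 100 photoreceptor-like cells, 20.3 per 100 pigmented-like cells, 31.9 per 100 macrophage-like cells and 44.8 per 100 remaining cells (log2 ratio for the remaining cells -1.53, -1.59 to -1.47). Red blood cells went the other way, with 71.9 UMIs per 100 cells in DKO against 63.2 in control (0.19, 0.021 to 0.35). This value rested on few droplets: 9 of 690 DKO red blood cells had more than 5 gamma crystallin UMIs, up to 174, and held 87.5% of the class's gamma crystallin UMIs. In control 11 of 1235 held 17.9%.

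The share of droplets without any gamma crystallin UMI depends little on such droplets. It was 60.5% (57.7 to 63.2) of red blood cells in control and 91.0% (88.6 to 93.0) in DKO, 58.9% and 90.9% of neuron-like cells, and 62.1% and 95.3% of photoreceptor-like cells. In lens cells it was 0.559% and 0.581%. Read as a Poisson load, the red blood cell shares stand for 50.3 UMIs per 100 cells in control and 9.41 in DKO, a log2 ratio per cell of -2.42, against -2.75 per cell in lens cells. Among red blood cells with alpha crystallins under 0.1% of UMIs, 1224 of 1235 in control and 679 of 690 in DKO, the counted load was 57.3 and 12.5 per 100, a ratio of -2.19. Per 100 *Cryaa* UMIs, gamma crystallin UMIs numbered 82.0 in control and 31.0 in DKO lens cells. They numbered 119.8 and 131.6 in all red blood cells, and 125.3 and 93.6 in neuron-like cells. *Cryaa* is part of the lens rule, and the reason for this difference was not tested.

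**Figure D4:**
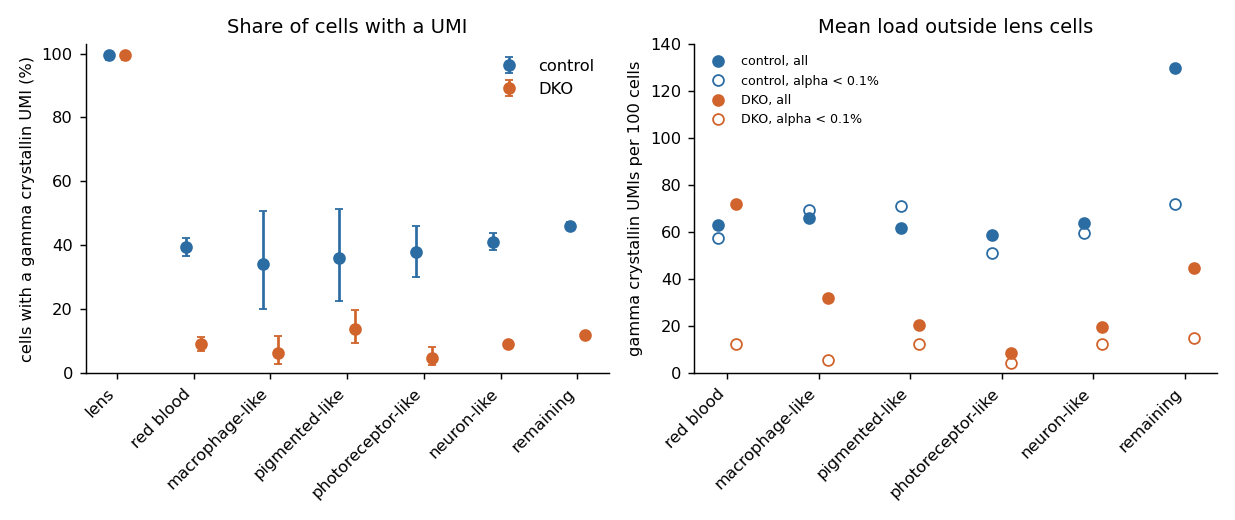
Left, percent of cells with at least 1 gamma crystallin UMI in each class, with exact binomial 95% intervals; right, gamma crystallin UMIs per 100 cells in the classes outside the lens, for all cells (filled) and for cells with alpha crystallins under 0.1% of UMIs (open). Control shares lie from 34 to 46% and DKO shares from 4.7 to 14% outside the lens, and the filled DKO red blood value of 71.9 falls to 12.5 when open.

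Much of the load of the remaining cells lay in few of them. Those with alpha crystallins from 0.1% to 1% of UMIs, 214 of 6666 in control and 158 of 7077 in DKO, carried 4007 of the 8647 control and 2145 of the 3174 DKO gamma crystallin UMIs of the class. Under 0.1% the load was 71.9 per 100 in control and 14.9 per 100 in DKO, a ratio of -2.27. The load also rose with a droplet's depth: in remaining cells under 0.1% it went from 42.5 per 100 in the quartile of lowest UMI count to 112 in the highest in control, and from 8.10 to 24.6 in DKO.

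The make-up of the gamma crystallin UMIs outside the lens depended on which droplets were counted. *Cryga* made up 18.7% (17.9 to 19.4) of them over all other control cells and 21.5% (20.5 to 22.5) over those with alpha crystallins under 0.1%, against 22.3% in lens cells. In DKO the shares were 13.53% (12.5 to 14.6), 16.2% (14.4 to 18.1) and 14.2%. *Crygs* made up 1.23% (1.03 to 1.46) over all other control cells and 0.224% (0.123 to 0.376) over those with alpha crystallins under 0.1%, on either side of the 0.984% (0.937 to 1.03) in lens cells. In DKO it made up 1.95% (1.57 to 2.40) and 1.45% (0.923 to 2.17), against 2.39% (2.20 to 2.60) in lens cells.

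**Figure D5:**
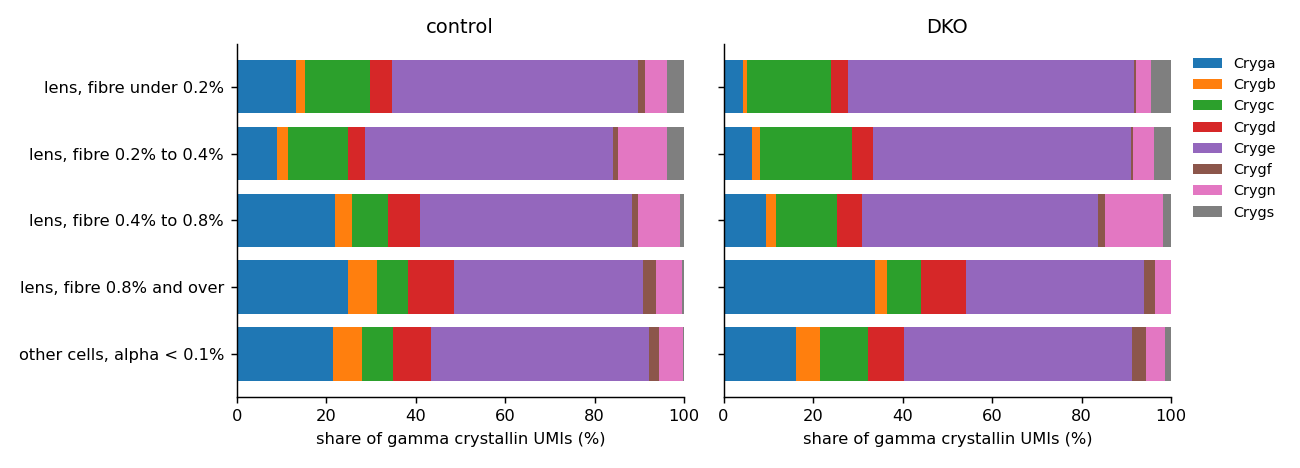
Share of each gene among gamma crystallin UMIs (%), in lens cells by fibre list share and in all other cells with alpha crystallins under 0.1% of UMIs, for control and DKO. The *Cryga* segment is wider at the highest than at the lowest fibre share, 13.2 to 24.8% in control and 4.42 to 34.0% in DKO, where 1 cell holds 1519 of the 2092 *Cryga* UMIs of the last bar.

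*Crygn* had a low load in the classes outside the lens. It had 6 UMIs in 153 control photoreceptor-like cells, 3.92 per 100 (1.44 to 8.54), and 46 in 1322 neuron-like cells, 3.48 per 100 (2.55 to 4.64), against 2.75 per 100 (1.91 to 3.85) in red blood cells. After thinning each cell to 2000 UMIs, a *Crygn* UMI was in 2.17% (0.451 to 6.22) of control photoreceptor-like cells, from 3 of 138 cells, and in 0.919% (0.460 to 1.64) of neuron-like cells. In red blood cells it was in 0.0817% (0.00207 to 0.454), from 1 of 1224 cells. Thinning was a single random draw, so a count this small can shift with the draw. Without thinning a *Crygn* UMI was in 3.92% of photoreceptor-like, 3.33% of neuron-like and 2.67% of red blood cells in control. In DKO the thinned shares were 0.515% (0.0130 to 2.84), 0.154% (0.0499 to 0.358) and 0.742% (0.241 to 1.72), with overlapping intervals and each from 5 cells or fewer. Whether these few UMIs are free RNA was not tested.

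*Crygs* had 5 UMIs in 1322 control and 6 in 3471 DKO neuron-like cells, 0.378 and 0.173 per 100, against 0.405 and 0.145 per 100 in red blood cells. After thinning to 2000 UMIs, 0 of 1224 control red blood cells held a *Crygs* UMI, which allows a share of up to 0.245% by a floor of 3 counts and of up to 0.301% by the exact binomial interval. In neuron-like cells the share was 0.251% (0.0517 to 0.731), an interval that overlaps that of red blood cells.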

How the data were processed

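Eyecups were dissociated and captured with the 10x Genomics 3′ kit, version 3. Per the submitters' processing notes, Cell Ranger 3.1.0 and the build mm10 were used, and the authors deposited raw UMI counts per gene and cell for each of the 2 libraries, without normalization. These counts were used here. The study's own filter was applied, which asks for over 200 and under 6000 detected genes per barcode and for a mitochondrial share below 20%. Lens cells were set first, then in order red blood (hemoglobin at least 10% of UMIs), macrophage-like (at least 5 UMIs), pigmented-like (0.1%), photoreceptor-like (0.1%) and neuron-like cells (0.5%) by their marker lists. No doublet caller was run, and lens cells with at least 5% hemoglobin (5 control, 1 DKO) or 0.5% neuron-list UMIs (2 and 8) were left out in an alternative. The members and lists were chosen with earlier results of these data known. Named genes are the 8 members, the other crystallins, the fibre, epithelium and regulator lists, *Six3*, *Six6*, and the 10 genes (5 for *Crygn* and *Crygs*) of highest mean within-library correlation. Levels are UMIs summed over cells per 1000000 UMIs. No test was possible with 1 library per genotype. A ratio against 0 UMIs used a floor of 3 UMIs. Lens cells held 4079647 UMIs in control and 3128932 in DKO. Intervals cover counting error only, at 95%. The fold and interval code was checked on simulated counts. Python 3.11.15, numpy 2.4.6, scipy 1.17.1, pandas 2.3.3 and matplotlib 3.10.9 were used. Gene models were from GENCODE vM21 on the same build, which need not be the annotation used for counting, and all 8 identifiers matched. Alternatives were other lens limits, cell filters, totals and averages.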

Additional observations from a re-analysis of the deposited data

Results flagged for a closer look

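In red blood cells 3 members and the sum over all members stood higher in DKO than in control per cell, while in lens cells they stood lower. The log2 ratios per red blood cell were 0.63 (0.022 to 1.24) for *Crygb*, 0.77 (0.22 to 1.31) for *Crygc*, 1.63 (0.66 to 2.66) for *Crygf* and 0.19 (0.021 to 0.35) for the sum. The difference between the classes was not tested. In DKO 9 of 690 red blood cells held 87.5% of the class's gamma crystallin UMIs, and with alpha crystallins under 0.1% of UMIs the ratio of the sum was -2.19.

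In lens cells with at least 0.8% of UMIs on the fibre list, *Cryga* stood higher in DKO, with a log2 ratio of 0.39 (0.33 to 0.46) against -3.08 over all lens cells. This difference was not tested either, and it rests on 36 control and 13 DKO cells, 1 of which held 1519 of the 2092 DKO UMIs. Without that cell the ratio was 0.14 (0.014 to 0.26). With the deepest control cell of the group left out as well it was 0.23 (0.10 to 0.35).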

How the results depend on the processing

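No paired analysis was possible because only 1 library was made per genotype, and no replicate could be left out. Values above 0 for the summed log2 ratio in lens cells came only from the group of highest fibre list share. They were 0.24 without its deepest DKO cell and 0.38 without the deepest cell of each library. Under each other alternative the summed ratio, -2.43, stayed below 0. It was -2.23 and -2.36 with the lens limit at 2% and 0.5% of UMIs, -2.45 without the cell filter, -2.63 in cells with at least 1000 genes, -2.62 over a total without crystallin, hemoglobin and mitochondrial UMIs, -2.46 without possible mixed droplets, -1.69 as a mean over cells, -0.81 as a median over cells and -2.11 without the 10 deepest cells. By fibre list share it was -0.29, -0.97, -2.01 and -0.057, and in cells with at least 2000 UMIs -0.16, -0.89, -2.11 and -0.087. On the fibre side, -2.43, the same first 7 settings gave -2.22, -2.37, -2.46, -2.64, -2.63, -2.46 and -1.71, and a fibre list share of at least 0.1% gave -2.50. The difference in fibre-side share, -1.70 percentage points, was -9.34 (-15.8 to -2.78) after thinning to 1000 UMIs, and from -2.76 to -0.88 otherwise. For red blood cells the ratio of 0.19 was -0.69 with the lens limit at 0.5%, -0.23 without the cell filter, -0.35 with at least 1000 genes, -2.19 with alpha crystallins under 0.1%, -2.42 from the cells without a UMI, and 0.45 per 1000000 UMIs. Red blood cells had medians of 421 genes in control and 349 in DKO, so the limit of 1000 genes left out most of them. For remaining cells the ratio of -1.53 was -0.77 and -2.13 with the lens limit at 2% and 0.5%, -1.28 per 1000000 UMIs, -1.70 with neurons joined, -2.27 with alpha crystallins under 0.1% and -2.30 from the cells without a UMI. Of 107 values for single members, 98 lay below 0, not counting the setting that left out the deepest cell of each library. The others were *Crygc* at 0.083 under 0.2%, *Cryga* at 0.39 and *Crygc* at 0.094 at 0.8% and over, and in that group without its deepest DKO cell *Cryga* and *Crygb* at 0.14, *Crygc* at 0.62, *Crygd* at 0.38, *Cryge* at 0.20 and *Crygf* at 1.12. Settings by fibre list share, depth, deepest cells, median and low alpha crystallins were added after the values were seen. With genes of at least 10 UMIs, 3.22% were at least 2-fold lower and 9.30% at least 2-fold higher, against 1.46% and 3.65%. The cause of these shifts was not tested.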

Other observations

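Barcodes that the cell filter removed, 493 in control and 526 in DKO, also held gamma crystallin UMIs, 12063 and 4140 in all. These made up 2376 CPM in control and 1006 CPM in DKO. Of the removed barcodes, 32 in control and 21 in DKO met the lens rule. *Crygn* stood at 114 CPM in the removed control barcodes and at 138 CPM in the removed DKO barcodes per 1000000 UMIs, but per 100 barcodes at 118 UMIs in control and 108 in DKO, so the direction turns with the unit.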
